A study of Mus musculus with 6 samples.

Results

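Antiviral interferon-stimulated genes and sensors were examined in mouse liver as a set of 37 genes, among 16140 genes in the deposited table. The set, and the pathway and marker lists used below, were chosen by name with earlier results of these data known. Their counts beside the shares of all genes are therefore a description and not a test. The set holds interferon-regulated transcription factors, sensors of viral nucleic acid and the proteins that such factors induce. All 37 were found in the table, and all 37 passed the filter on low counts. Liver libraries labelled knockout, 3 from Selofl/fl Alb-Cre mice, were compared with 3 control liver libraries from untreated Selofl/fl mice, all on a normal diet per the series title. Selo is the older name of Selenoo, which encodes the mitochondrial selenoprotein O. Both groups carry the floxed Selo allele, and Alb-Cre, a recombinase driven by the albumin promoter that acts in hepatocytes, was present in the knockouts only. The loss of Selenoo and the presence of Cre therefore cannot be told apart. Bulk libraries do not show which liver cells kept an intact gene. The labels give no age, sex, strain or infection, and they do not say that each library came from a separate mouse, so the p-values measure the spread between these libraries.

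Type I and type III interferons are secreted when cells sense viral or misplaced nucleic acid. Their receptors activate JAK kinases, which phosphorylate STAT proteins. STAT2 acts with IRF9 in the complex ISGF3, which binds interferon-stimulated response elements, whereas the response to interferon gamma acts through GAS elements. The induced proteins degrade viral RNA, block its translation or restrict virus entry and release, and in the liver they are made by hepatocytes and by resident Kupffer cells and other leukocytes.

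The 6 libraries were bulk mRNA-seq libraries with totals of 15550289 to 18680195 estimated counts. Selenoo itself stood at 6.29, 9.31 and 7.67 CPM, that is read counts scaled to library size, in knockout livers, against 94.8, 84.2 and 96.0 CPM in control livers. The groups did not overlap, and the log2 fold change was -3.56 (adjusted p = 4.64e-05, edgeR's quasi-likelihood test). Albumin, the defining hepatocyte product, was present at 117076 to 138750 CPM in knockouts and 101591 to 134269 CPM in controls. Of 12173 genes tested, 181 (1.49%) were called at an adjusted p under 0.05, 94 higher and 87 lower in knockouts. The fewest counts behind a member in any library were 17.

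Of the 37 interferon-stimulated genes, 2 fell in knockout livers and none rose at an adjusted p under 0.05. Among all tested genes 0.715% were called lower and 0.772% higher. The 2 were Ifi47, an interferon-inducible GTPase, and Rtp4, an interferon-induced protein of the receptor transporter family. The fold change was negative in 36 of 37 members, against 52.2% of all tested genes, with a median log2 fold change of -0.40, against -0.02 over all tested genes. At an unadjusted p under 0.05, 15 members were lower and 0 higher, whereas 9.26% of all tested genes were lower and 9.27% higher. In 10 members all 3 knockout libraries lay below all 3 control libraries, a pattern that 11.9% of all tested genes showed. These were Irf1, Oas2, Oas3, Ifit1, Isg15, Samd9l, Ifi35, Ifi47, Xaf1 and Rtp4. Oas3 was among them by the rounding of its counts only, and with counts not rounded 9 members remained (11.9% of all tested genes). In the deposited TPM, the length-normalised unit, the count was also 10 (10.3%), with Stat2 and Ifitm3 in place of Irf1 and Oas3. In no member did all 3 knockouts lie above all 3 controls, against 13.3% of all tested genes. The authors' deposited table lists 7 members with a q-value under 0.05, all lower in knockouts, where 1.44% of its rows were (Irf1, Oas2, Isg15, Ifi35, Ifi47, Xaf1 and Rtp4). The count depended on the test: 7 members were lower with DESeq2 (2.18% of all genes), 5 with no filter on low counts (0.967%), 1 with limma-voom (0.608%), and 0 and 0 with limma on log2(FPKM + 1) (0.509%) and log2(FPKM + 0.1) (0.608%). It also changed when single libraries were left out, as did the share of all genes called lower. No member was called lower without knockout 1 (0.21% of all genes), knockout 2 (0.194%), knockout 3 (0.226%) or control 2 (0.35%), whereas 6 were without control 1 (1.52%) and 6 without control 3 (2.12%).

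**Figure D1:**
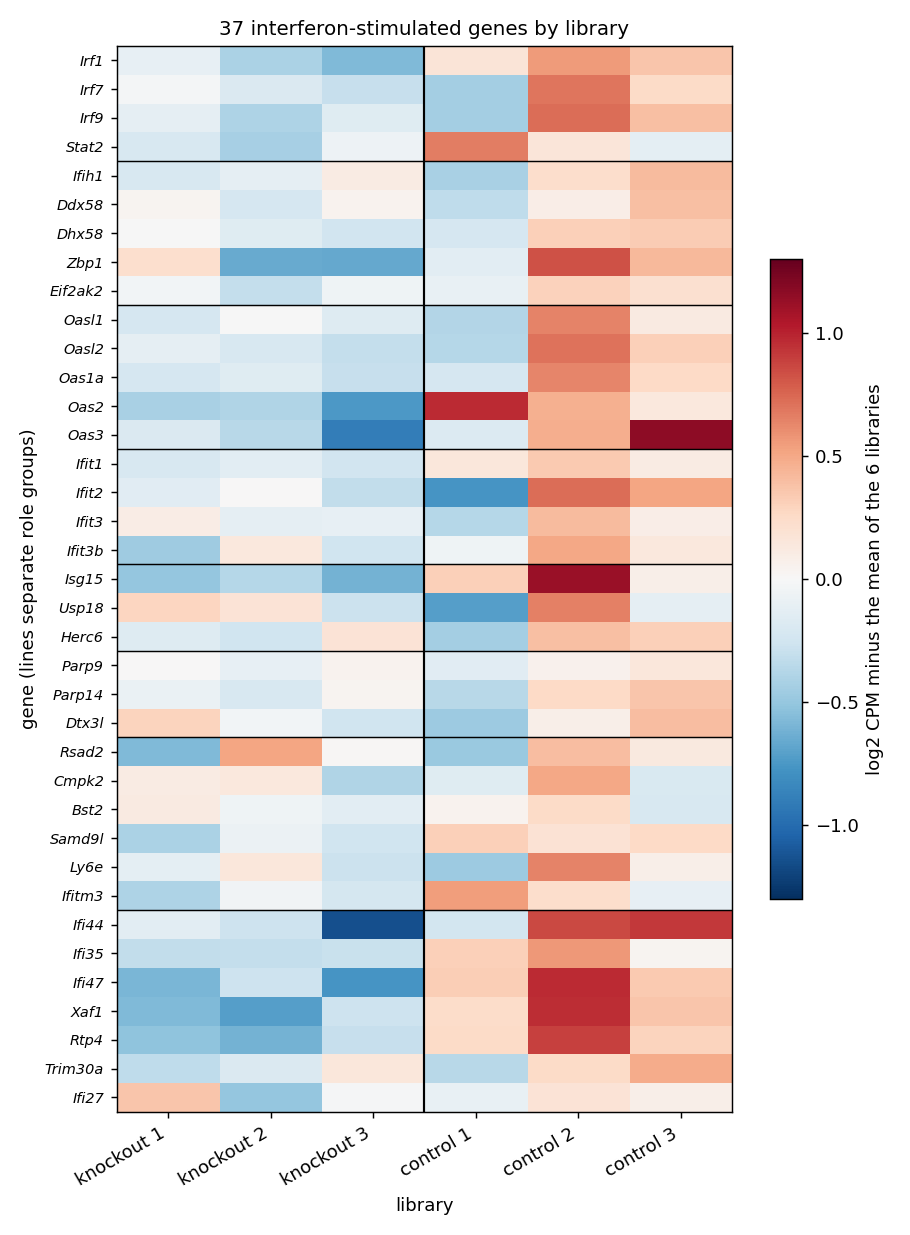
Heat map of the 37 genes (rows, grouped by role) in the 3 knockout and 3 control libraries (columns); colour is log2 CPM minus the gene's mean over the 6 libraries. Control 2 is the highest library for 22 genes, and control 1 is the lowest for 15.

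The controls differed among themselves in these genes more than the knockouts did. The SD of log2 CPM was larger in controls than in knockouts for 31 of 37 members, where 70.3% of all tested genes showed the same. The median fold between the highest and the lowest library was 1.26 within knockouts and 1.73 within controls. Over all tested genes these medians were 1.21 within knockouts and 1.38 within controls. Set against the control mean, the median over the 37 genes stood at -0.34, -0.33 and -0.43 on the log2 scale in the knockouts, against -0.38, 0.30 and 0.04 in the controls. Control 1 thus lay among the knockouts, and controls 2 and 3 lay above them.

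The comparison with each control library differed accordingly. The knockout mean minus control 1 had a median of 0.04 over the members on the log2 scale and was negative in 18 of 37. Against control 2 the median was -0.58 and all 37 differences were negative, and against control 3 it was -0.44 with 34 negative. All 3 knockouts lay below controls 2 and 3 together in 27 members, against 18.5% of all tested genes. They lay below control 2 in 34 members (34.4% of all tested genes), below control 3 in 28 (30.9%) and below control 1 in 12 (37.5%). Control 1 was the lowest of the 3 controls for 28 members (40% of all tested genes), and the knockout mean lay within the control range for 20 (51.8%). In 15 members all 3 knockouts instead lay above control 1 (38.1% of all tested genes), and in those same 15 control 1 was the lowest of the 6 libraries (28% of all tested genes). These were Irf7, Irf9, Ifih1, Ddx58, Oasl1, Oasl2, Ifit2, Ifit3, Usp18, Herc6, Parp9, Parp14, Dtx3l, Ly6e and Trim30a. Control 2 was the highest library for 22 members (16.2% of all tested genes), control 3 for 9 (16%), control 1 for 4 (27.3%) and a knockout for 2, Rsad2 and Ifi27 (40.5%).

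**Figure D2:**
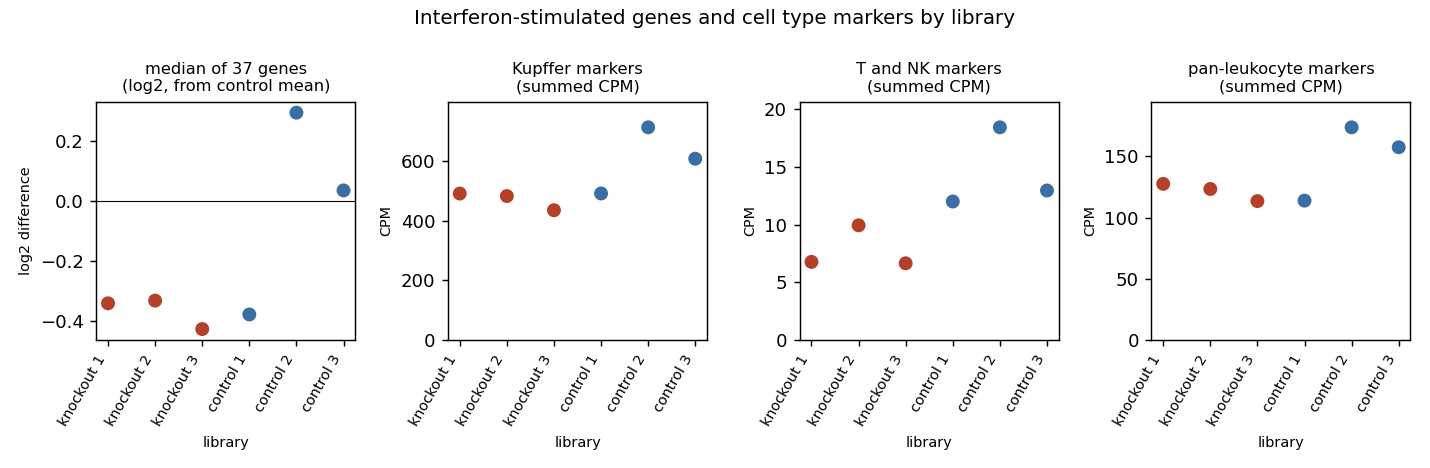
The first panel plots, for each library, the median over the 37 genes of log2 CPM minus the control mean; the others plot summed CPM of Kupffer cell, T and NK cell, and pan-leukocyte markers. Control 1 sits with the 3 knockouts in the first panel, at -0.38, and control 2 is the highest library in all 4 panels.

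Summed markers of several liver leukocytes were lower in knockouts, though 1 leukocyte marker alone, Jchain, was called, and their part in the result was not tested. The 10 Kupffer cell markers summed to 435 to 491 CPM in knockouts and 492 to 714 CPM in controls. All 10 had negative fold changes and 0 were called. The 6 pan-leukocyte markers summed to 113 to 128 CPM in knockouts and 114 to 174 CPM in controls, with all 6 negative and 0 called. Control 2 had the highest sum in both lists, and control 1 lay next to or within the knockout range. The median over the interferon-stimulated genes also placed control 1 among the knockouts. In the called members Ifi47 and Rtp4, however, control 1 lay above every knockout. For the summed T and NK cell, B and plasma cell, and neutrophil markers, control 1 stood above every knockout, at 12, 14.3 and 5.17 CPM. Of 12 T and NK cell markers 8 were tested, with 7 negative, 0 called and a median log2 fold change of -1.24. The sums of this list were 6.65 to 9.94 CPM in knockouts and 12 to 18.4 CPM in controls. The 6 B and plasma cell markers summed to 5.68 to 7.95 CPM in knockouts and 11.6 to 24.2 CPM in controls, and 1 of 4 tested, Jchain, was called lower. The 8 monocyte and macrophage markers had overlapping sums, at 123 to 144 CPM in knockouts and 121 to 185 CPM in controls. All 8 had negative fold changes, with a median log2 fold change of -0.47 and 0 called. The sums of the 6 plasmacytoid dendritic cell markers also overlapped, at 8.18 to 9.67 CPM in knockouts and 8.25 to 10.2 CPM in controls. The 2 tested plasmacytoid markers had log2 fold changes of opposite sign, -0.09 and 0.89, and 0 were called. Sums overlapped as well for the 8 stellate cell, 5 cholangiocyte and 8 hepatocyte markers, of which 2 hepatocyte markers, Serpina1a and Tat, were called higher. The 6 neutrophil markers summed to 3.81 to 5.0 CPM in knockouts and 5.17 to 7.85 CPM in controls, with no overlap. The 7 endothelial markers overlapped, at 244 to 299 CPM in knockouts and 297 to 314 CPM in controls, with Lyve1 called lower. No marker with a row was at 0 in every library, and 1 of the 12 T and NK cell markers had no row under the listed name. In bulk libraries, fewer cells of a type and less RNA per cell cannot be told apart.

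Promoter windows of 250 bases before to 50 after the start were available from RefSeq (GRCm38.p6) for 28 of the 37 genes. The core of the interferon-stimulated response element (ISRE core), searched on either strand as GAAA, then 2 bases of any kind, then GAAA again, was found in 14 of these 28 (50%), against 3.99% of 27025 genes with a window. The core of the GAS element, TTCNNNGAA, which reads alike on both strands, was found in 7 of 28 (25%), against 9.55% of all. The ISRE core was present in 3 of 8 members whose groups did not overlap, Oas3 included, and in 11 of 20 whose groups overlapped. For TTCNNNGAA the counts were 2 of 8 and 5 of 20. The sequences below are the 200 bases before the RefSeq start, on the gene's strand, with every match in capitals. For Irf1, Ifit3 and Ifit3b this start lies inside the deposited gene interval, which begins earlier, so their windows overlap that interval. They show members that lay lower in every knockout library (Ifi47, Isg15, Irf1 and Ifit1) beside members whose groups overlapped (Ifit3, Ifit3b and Bst2). The windows are chr11:49076387-49076586 (+) for Ifi47, chr4:156200819-156201018 (-) for Isg15, chr11:53769814-53770013 (+) for Irf1, chr19:34640689-34640888 (+) for Ifit1, chr19:34583329-34583528 (+) for Ifit3, chr19:34607757-34607956 (+) for Ifit3b and chr8:71537473-71537672 (-) for Bst2.
Ifi47: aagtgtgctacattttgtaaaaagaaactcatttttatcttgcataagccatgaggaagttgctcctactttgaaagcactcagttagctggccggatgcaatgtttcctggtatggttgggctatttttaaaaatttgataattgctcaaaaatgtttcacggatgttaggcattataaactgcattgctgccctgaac
Isg15: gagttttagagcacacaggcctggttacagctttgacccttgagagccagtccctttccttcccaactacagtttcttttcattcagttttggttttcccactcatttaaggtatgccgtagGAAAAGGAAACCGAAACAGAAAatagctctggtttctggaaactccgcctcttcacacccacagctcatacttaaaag
Irf1: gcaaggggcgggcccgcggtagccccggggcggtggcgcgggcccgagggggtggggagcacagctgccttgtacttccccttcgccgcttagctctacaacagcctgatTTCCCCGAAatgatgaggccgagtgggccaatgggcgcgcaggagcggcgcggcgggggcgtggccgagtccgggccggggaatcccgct
Ifit1: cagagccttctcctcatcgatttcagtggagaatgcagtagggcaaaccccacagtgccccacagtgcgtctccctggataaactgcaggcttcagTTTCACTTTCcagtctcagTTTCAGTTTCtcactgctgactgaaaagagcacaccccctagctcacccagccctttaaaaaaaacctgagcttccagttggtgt
Ifit3: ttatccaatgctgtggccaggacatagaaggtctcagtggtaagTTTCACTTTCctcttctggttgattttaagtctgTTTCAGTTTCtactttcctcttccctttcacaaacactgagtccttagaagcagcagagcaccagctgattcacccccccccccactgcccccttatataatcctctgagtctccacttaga
Ifit3b: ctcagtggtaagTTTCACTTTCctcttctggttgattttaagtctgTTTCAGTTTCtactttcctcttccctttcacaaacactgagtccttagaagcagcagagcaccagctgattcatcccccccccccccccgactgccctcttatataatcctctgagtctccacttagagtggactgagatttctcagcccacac
Bst2: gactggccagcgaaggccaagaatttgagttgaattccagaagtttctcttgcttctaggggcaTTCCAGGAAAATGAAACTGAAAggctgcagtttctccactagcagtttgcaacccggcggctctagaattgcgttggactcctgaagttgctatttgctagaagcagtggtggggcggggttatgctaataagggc
Isg15 holds 3 overlapping ISRE core matches that begin 78, 72 and 66 bases before the start. Ifit1, Ifit3 and Ifit3b each hold a pair on the other strand, where the match reads TTTC first, and the pairs of Ifit3 and Ifit3b lie in nearly the same sequence. Bst2 holds 2 overlapping ISRE core matches and 1 overlapping TTCNNNGAA, and the Irf1 window, the first of 2 for that gene, holds 1 TTCNNNGAA, 90 bases before the start. The Ifi47 window has neither string of letters.

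None of the 4 transcription factors passed the test, and all 4 had negative fold changes. Irf1, a factor that interferon gamma induces (chr11:53769854-53778374), stood at 17.2, 14.0 and 12.5 CPM in knockouts and 20.8, 27.2 and 23.9 CPM in controls. The groups did not overlap in CPM, with means of 14.6 ± 2.43 CPM in knockouts and 24.0 ± 3.22 CPM in controls (SD, n = 3 each). In TPM they did, since knockout 1 had 12.1 TPM and control 1 had 11.6 TPM. On the log2 scale Irf1 was lower by a fold change of -0.72 ± 0.16 (SE), which missed the threshold (adjusted p = 0.0657). Irf7, the factor that amplifies interferon production (chr7:141263183-141266499), stood at 50.9, 45.5 and 42.0 CPM in knockouts and 38.0, 83.9 and 61.7 CPM in controls. Control 1 was below every knockout, and the log2 fold change of -0.41 ± 0.25 was not called (adjusted p = 0.399); the error given with each fold change is its SE. Irf9, the DNA-binding part of ISGF3, also had control 1 below every knockout, at 20.6 to 24.9 CPM in knockouts and 20, 44.9 and 35.4 CPM in controls. Stat2, its partner, had another order, at 36.5, 31.3 and 40.2 CPM in knockouts and 66.8, 46.9 and 38.6 CPM in controls, so that here control 1 was the highest library. In TPM the groups of Stat2 did not overlap, with at most 11.4 TPM in knockouts and at least 12.4 TPM in controls. Stat2 overlaps Apof on the same strand, and Apof had 387 to 457 CPM in knockouts and 443 to 507 CPM in controls.

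Upstream of these factors, 30 genes of the interferons, their receptors, JAK-STAT proteins and sensing adaptors were in the table apart from the members, and 26 were tested. None of the 26 rose, and 1 fell. The called gene was Ikbke, a kinase that phosphorylates IRF3 and IRF7 (chr1:131254600-131279601), at 8.33, 9.89 and 8.35 CPM in knockouts and 14.0, 17.9 and 18.7 CPM in controls. Every knockout was below every control, with a log2 fold change of -0.93 ± 0.16 (adjusted p = 0.0284). No gene of these lists was called without any one of the knockouts, without control 2 or with limma on FPKM. In those settings 0.194% to 0.608% of all genes were called lower. Tbk1, a relative of Ikbke, had 16.5, 15.9 and 14.0 CPM in knockouts and 19.9, 23.0 and 20.3 CPM in controls. The log2 fold change of -0.45 ± 0.13 was not called (adjusted p = 0.124). Irf8, a factor of myeloid and lymphoid cells, had 9.30, 8.34 and 8.18 CPM in knockouts and 12.5, 16.3 and 12.1 CPM in controls, with an adjusted p of 0.0811. For both genes the groups did not overlap. Of the 12 tested receptor and JAK-STAT genes none was called, and the smallest p-values belonged to Ifngr1, Il10rb and Irf2, with log2 fold changes of -0.47, -0.40 and -0.37. Over these lists, every knockout lay below every control in 10 of the 26 tested genes (11.9% of all tested genes) and above in 2 (13.3%). The 2 were Ifnar1, a chain of the type I receptor, and the kinase Jak2. Ifnar1 had 29.2, 31.7 and 28.8 CPM in knockouts and 27.0, 23.8 and 28 CPM in controls, with a log2 fold change of 0.19 ± 0.12 (adjusted p = 0.437). Jak2 had 12.5, 12.6 and 12.2 CPM in knockouts and 9.66, 11 and 10.9 CPM in controls, with 0.24 ± 0.13 (adjusted p = 0.372). Neither was called. The other type I receptor chain, Ifnar2, had a log2 fold change of -0.09 ± 0.18. Of 8 interferon genes listed, Ifng was at 0 to 0.05 CPM in knockouts and 0.07 to 0.10 CPM in controls, below the 3 counts taken as a floor. The other 7 had no row under the listed names, so they have no values here.

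None of the 5 nucleic acid sensors passed the test, and the groups of all 5 overlapped. Zbp1, which binds Z-form nucleic acid and starts cell death (chr2:173206612-173218959), stood at 11.3, 6.17 and 6.14 CPM in knockouts and 8.86, 17.3 and 13.1 CPM in controls. Knockout 1 lay above control 1, and the log2 fold change was -0.73 ± 0.30 (adjusted p = 0.229). The RIG-I-like receptors Ifih1 (MDA5), Ddx58 (RIG-I) and Dhx58 (LGP2) had log2 fold changes of -0.19 ± 0.21, -0.13 ± 0.19 and -0.30 ± 0.18. Ddx58 lies within 36049 shared bases of Aco1 on the opposite strand, which had 191 to 198 CPM in knockouts and 110 to 192 CPM in controls. The log2 fold change of Ddx58 ranged from -0.29 to 0.061 when single libraries were left out. Eif2ak2, the RNA-activated kinase PKR that halts translation, had -0.28 ± 0.15.

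**Figure D3:**
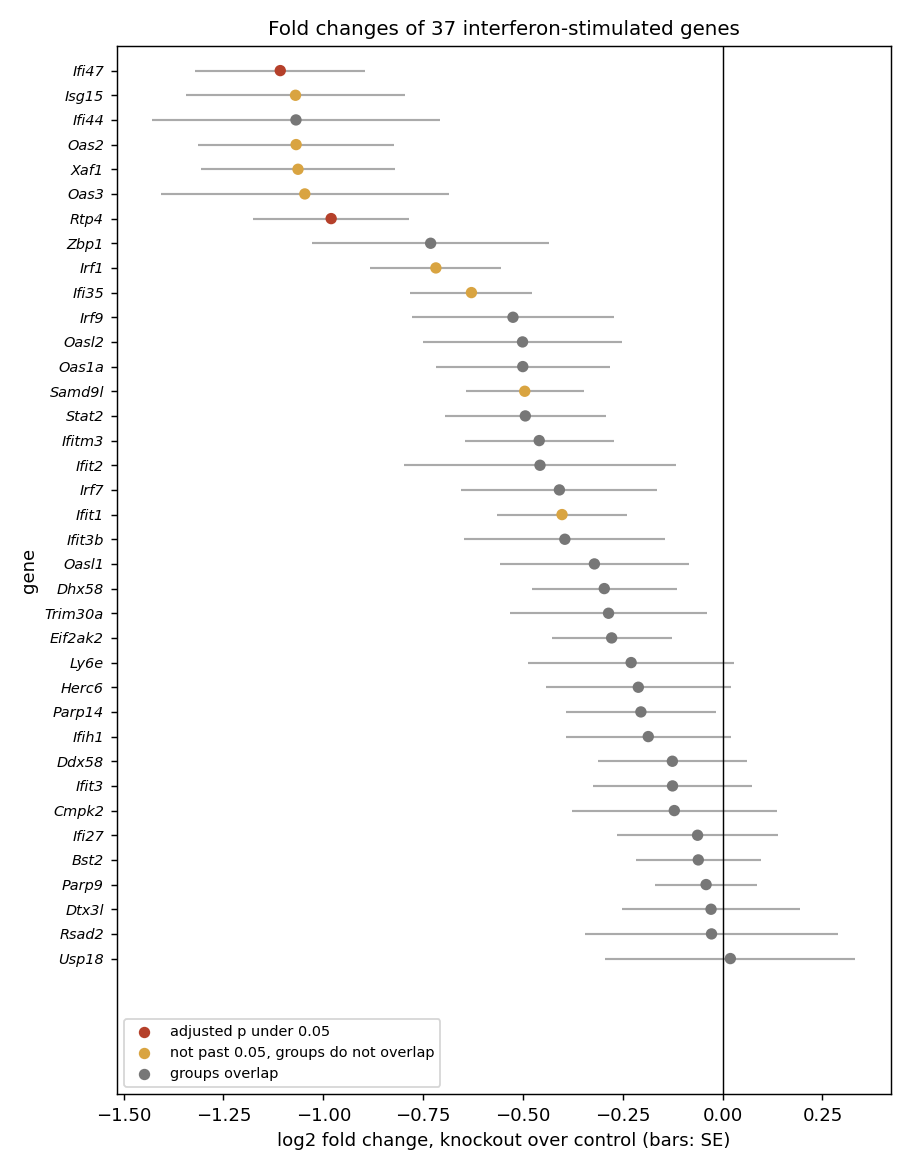
Log2 fold change of knockout over control (x axis, bars are SE) for the 37 genes (y axis), coloured by whether the gene passed an adjusted p of 0.05 and whether the 3 knockout and 3 control libraries overlapped in CPM of rounded counts. Ifi47 and Rtp4 passed, at -1.11 and -0.98, and Usp18 is the single gene to the right of 0.

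The 5 members of the oligoadenylate synthetase (OAS) family, which in most cases make the messenger that activates RNase L, all had negative fold changes and none was called. Oas2 (chr5:120730333-120749886) stood at 2.85, 2.91 and 2.27 CPM in knockouts and 7.52, 5.27 and 4.20 CPM in controls. The groups did not overlap, and control 1 was the highest library. Its log2 fold change was -1.07 ± 0.25, with an adjusted p of 0.0675. Oas3, whose annotated end lies 3.21 kb from Oas2, had 1.67, 1.49 and 1.02 CPM in knockouts and 1.68, 2.64 and 4.25 CPM in controls. Here control 1 was the lowest control and level with knockout 1 before rounding, and the log2 fold change was -1.05 ± 0.36 (adjusted p = 0.173). These neighbours thus had opposite orders of controls. Oasl1, which is reported in mouse to hold back Irf7 translation (chr5:114923143-114937911), had 7.90, 9.14 and 8.18 CPM in knockouts and 7.05, 14.4 and 9.96 CPM in controls. Control 1 was below every knockout, and the log2 fold change of -0.32 ± 0.24 was not called (adjusted p = 0.487). Oasl2 and Oas1a had log2 fold changes of -0.50 ± 0.25 and -0.50 ± 0.22, with overlapping groups.

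None of the 4 IFIT genes, which encode proteins that bind foreign RNA and block its translation, was called. They lie in 1 cluster on chromosome 19. Ifit1 (chr19:34640889-34650009), which recognises viral RNA caps, had 4.03, 4.23 and 3.92 CPM in knockouts and 5.17, 5.89 and 5.03 CPM in controls. Its groups did not overlap, and both were narrow, at 4.06 ± 0.16 CPM in knockouts and 5.36 ± 0.46 CPM in controls (SD, n = 3 each). The log2 fold change was -0.40 ± 0.16 (adjusted p = 0.228). Ifit3 (chr19:34583119-34588982), a partner of Ifit1, had 9.89, 8.51 and 8.58 CPM in knockouts and 7.18, 12.3 and 9.85 CPM in controls. All 3 knockouts lay inside the control range, and the log2 fold change was -0.13 ± 0.20 (adjusted p = 0.764), which ranged from -0.30 to 0.073 when single libraries were left out. Its copy Ifit3b had -0.40 ± 0.25 and Ifit2 had -0.46 ± 0.34. The transcripts of Ifit3 and Ifit3b were 98.0% identical over 1697 aligned bases, and both carry fractional estimated counts, so the split between them is uncertain. Ifit1bl1, which overlaps Ifit1 and Ifit3b on the other strand, stood at 0.17 to 0.29 CPM in knockouts and 0.13 to 0.57 CPM in controls.

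**Figure D4:**
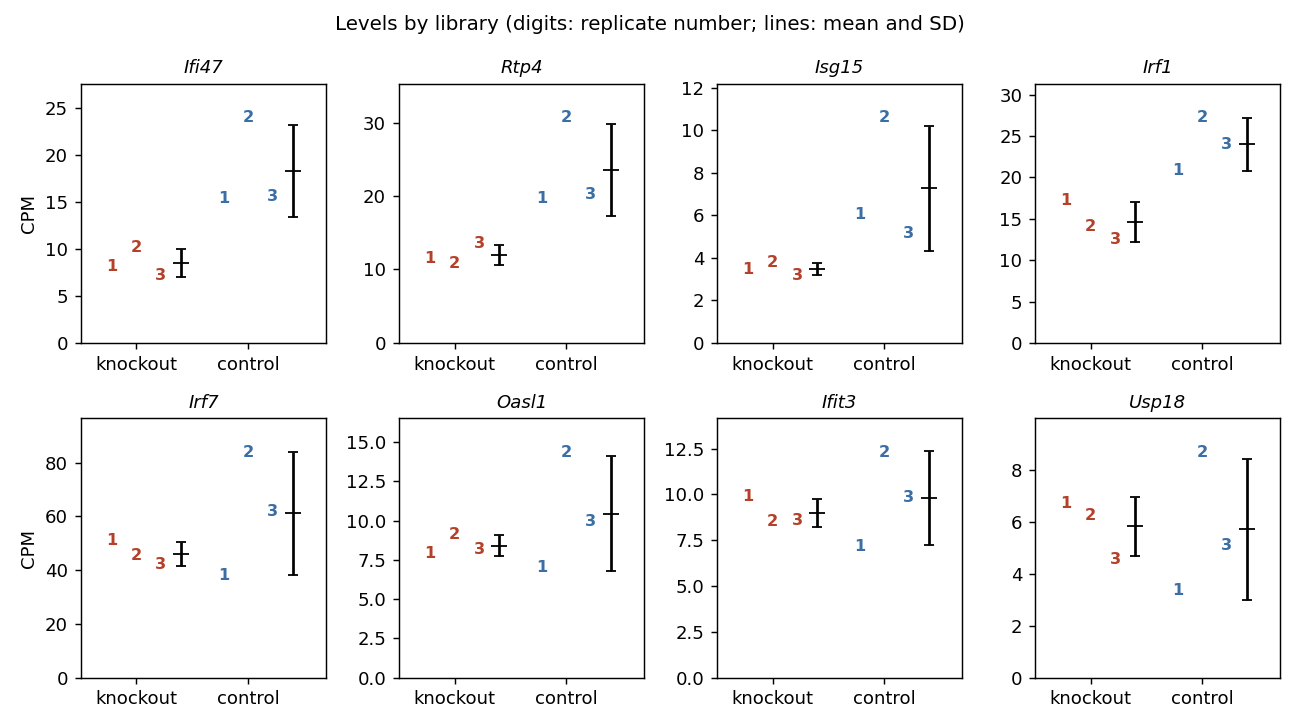
CPM (y axis, from 0) of 8 genes in knockout and control livers; digits are the replicate numbers, and lines are the group mean with SD (n = 3 each). In the upper row, Ifi47, Rtp4, Isg15 and Irf1, every knockout is below every control; in the lower row, Irf7, Oasl1, Ifit3 and Usp18, control 1 is the lowest library.

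The 3 genes of the ISG15 system were not called and had fold changes of both signs. Isg15, the ubiquitin-like modifier (chr4:156199424-156200818), stood at 3.44, 3.77 and 3.18 CPM in knockouts and 6.04, 10.6 and 5.13 CPM in controls. Every knockout was below every control, with control 2 far above the other controls. The log2 fold change was -1.07 ± 0.27 (adjusted p = 0.0888). Usp18, the protease that removes ISG15 and dampens the type I receptor (chr6:121245906-121270917), had 6.72, 6.23 and 4.55 CPM in knockouts and 3.36, 8.68 and 5.08 CPM in controls. The knockouts lay within the control range, and the log2 fold change was 0.02 ± 0.31 (adjusted p = 0.981), or -0.027 with upper-quartile scaling and -0.24 to 0.45 when single libraries were left out. Herc6, the mouse ligase that attaches ISG15, had -0.21 ± 0.23. Herc6 shares 29056 bases with Ppm1k on the opposite strand, which was called higher in knockouts (35.1 to 44.0 CPM in knockouts, 14.6 to 18.7 CPM in controls, adjusted p = 0.00822). The strand setting of the counting is not given in the sources used here, so reads of the pair cannot be told apart.

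The partners Parp9, Dtx3l and Parp14, an ADP-ribosylation and ubiquitin module of the interferon response, had the smallest fold changes by group, with a median log2 of -0.04 and none called. Parp9 (chr16:35938470-35972621) stood at 48.3, 44.6 and 49.7 CPM in knockouts and 43.4, 50.1 and 53.1 CPM in controls, a log2 fold change of -0.04 ± 0.13 (adjusted p = 0.884). Parp14 (chr16:35831892-35871518) stood at 19.6, 18.0 and 21.2 CPM in knockouts and 16.1, 24.9 and 26.6 CPM in controls, with -0.20 ± 0.19 (adjusted p = 0.58). In both genes all 3 knockouts lay between control 1 and the other controls. Dtx3l, the ubiquitin ligase of the module, had 45.3, 36.2 and 31.0 CPM in knockouts and 26.8, 39.0 and 48.9 CPM in controls. Parp9 and Dtx3l overlap by 558 bases on opposite strands.

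Of the 6 direct antiviral effectors none passed the test. Samd9l, a restriction factor for poxviruses (chr6:3372257-3399571), had 7.09, 8.97 and 7.90 CPM in knockouts and 11.7, 10.7 and 11.3 CPM in controls. The groups did not overlap, and the controls spread by a fold of 1.09, the least among the members. The log2 fold change was -0.50 ± 0.15 (adjusted p = 0.125). Ifitm3, which blocks fusion of entering viruses (chr7:141009590-141010744), had 334, 427 and 377 CPM in knockouts and 639, 517 and 409 CPM in controls. Control 3 lay below knockout 2 in CPM but above it in TPM, and the log2 fold change was -0.46 ± 0.19 (adjusted p = 0.231). Bst2, or tetherin, which holds budding virus at the membrane, had 168, 148 and 140 CPM in knockouts and 159, 184 and 134 CPM in controls. Its log2 fold change was -0.06 ± 0.16, and 0.12 with a length and GC trend removed. Ly6e, a membrane protein that acts on virus entry, had -0.23 ± 0.26. The neighbours Rsad2 (viperin, which makes a chain-terminating nucleotide) and Cmpk2, 12.7 kb apart on chromosome 12, had -0.03 ± 0.32 and -0.12 ± 0.26. When single libraries were left out, these 4 genes crossed 0, with highest values of 0.057 for Bst2, 0.10 for Ly6e, 0.21 for Rsad2 and 0.15 for Cmpk2.

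Both called members belong to the remaining 7 induced proteins, where 0.715% of all tested genes were called lower. In 4 of the 7 every knockout lay below every control, against 11.9% of all tested genes. Ifi47 (chr11:49076587-49096987 in RefSeq's GRCm38.p6 annotation) stood at 8.17, 10.2 and 7.22 CPM in knockouts and 15.4, 24.0 and 15.6 CPM in controls. Every knockout was below every control, with means of 8.52 ± 1.51 CPM in knockouts and 18.3 ± 4.93 CPM in controls (SD, n = 3 each). The log2 fold change was -1.11 ± 0.21 (adjusted p = 0.0413), and the knockout mean was 46.5% of the control mean. Isg15, Oas2, Oas3, Ifi44, Xaf1 and Rtp4 had fold changes within the SE of this one, and the order among them changed with the setting. Rtp4 (chr16:23520210-23614222) stood at 11.6, 10.8 and 13.5 CPM in knockouts and 19.7, 30.7 and 20.2 CPM in controls. Again the groups did not overlap and control 2 was the highest library, with a log2 fold change of -0.98 ± 0.19 (adjusted p = 0.0453). Over all settings the adjusted p of Ifi47 ranged from 0.000464 to 0.158 and that of Rtp4 from 0.000837 to 0.201. Without knockout 1, knockout 2, knockout 3 or control 2 the adjusted p was 0.158, 0.0963, 0.158 and 0.10 for Ifi47 and 0.165, 0.201, 0.118 and 0.10 for Rtp4. Rtp4 shares 1031 bases with Masp1 on the opposite strand, and Masp1 had 76.5 to 91.6 CPM in knockouts and 44.2 to 79.7 CPM in controls.

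Of the other 5, Xaf1, which promotes cell death, had 2.53, 2.29 and 3.13 CPM in knockouts and 4.43, 7.29 and 4.82 CPM in controls, with a log2 fold change of -1.06 ± 0.24 (adjusted p = 0.0656). Ifi35 had 16.9, 16.9 and 17.2 CPM in knockouts and 26.1, 31.2 and 21.6 CPM in controls, with -0.63 ± 0.15 (adjusted p = 0.0774). In both genes every knockout was below every control, and the knockout values of Ifi35 lay within a fold of 1.02. Ifi44 had 1.93, 1.77 and 0.97 CPM in knockouts and 1.81, 3.88 and 4.05 CPM in controls, so control 1 lay among the knockouts, and its log2 fold change was -1.07 ± 0.36 (adjusted p = 0.164). Trim30a, a regulator of innate signalling, had -0.29 ± 0.25. Ifi27 (chr12:103434189-103440245), a mitochondrial protein, had 53.2, 29.3 and 40.9 CPM in knockouts and 38.7, 46.7 and 43.5 CPM in controls. Here the knockouts were the wider group, and the log2 fold change of -0.06 ± 0.20 was not called (adjusted p = 0.889) and was 0.082 with a length and GC trend removed. Ifi27l2a, which shares 6057 bases with Ifi27 on the opposite strand, had 5.96 to 8.91 CPM in knockouts and 8.12 to 16.2 CPM in controls.

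The level per transcript length, in TPM, the deposited length-normalised unit, spanned a wide range. Ifitm3 was the most abundant, at 1200 ± 109 TPM in knockouts and 1589 ± 159 TPM in controls (SD, n = 3 each). Ly6e followed at 320 ± 47.5 TPM in knockouts and 383 ± 173 TPM in controls, and Bst2 at 344 ± 50.2 TPM in knockouts and 351 ± 69.3 TPM in controls, and these neighbours in the order did not differ beyond their spread. Ifi27 came next, at 70.2 ± 22.9 TPM in knockouts and 72.9 ± 15.4 TPM in controls, and then Irf7, at 36.9 ± 5.53 TPM in knockouts and 49.7 ± 22.5 TPM in controls. From Irf7 down, each gene lay closer to the next in mean TPM than the larger of their SDs over controls. In all, 14 members had a mean of at least 10 TPM over the 6 libraries and 9 had less than 2, with a median of 5.01 TPM. Oas3 was the lowest, at 0.40 ± 0.085 TPM in knockouts and 0.82 ± 0.46 TPM in controls. Ifi47 and Rtp4 ranked 14 and 7 in this order.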

How the data were processed

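RNA was measured by bulk mRNA-seq of oligo(dT)-enriched liver RNA, per the labels' protocols, in 3 knockout and 3 control libraries with totals of 15550289 to 18680195. The authors' deposited table holds 1 expected count, 1 FPKM and 1 TPM value per gene and library, with log2 fold changes, p-values and q-values of the authors' own comparison. HISAT2, Bowtie2 and RSEM 1.3.1 with the GRCm38 build are named in the submitters' processing notes; the strand setting is not given in the sources used here. RSEM divides reads that fit several genes, and 4.55% to 4.98% of counts per library were not whole (tolerance 0.01). In 7 members (Stat2, Eif2ak2, Oas1a, Oas3, Ifit3, Ifit3b and Trim30a) some counts were fractional.

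Counts were rounded and tested in R 4.3.3 with edgeR 4.0.16 (filterByExpr, TMM scaling, quasi-likelihood F test, Benjamini-Hochberg adjustment over 12173 genes, threshold 0.05). CPM were scaled by TMM, and SE is the size of the log2 fold change divided by the square root of F. A count of 3 corresponds to 0.161 to 0.193 CPM, and such floors cover counting error only. Limma 3.58.1 and DESeq2 1.42.0 gave alternatives. No 2 libraries agreed within sampling noise (lowest chi-square per degree of freedom 18.9). The sign of the authors' fold changes was checked against the authors' own group means. It matched in all 181 genes picked for this by a high mean count and a large fold change, not by the test.

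The 37 members, the pathway lists and the marker lists were chosen with earlier results of these data known. Library values are given for the member with the smallest p and the member with the highest mean TPM in each role group, for called members and for the extremes of fold change; of the pathway lists, called genes and the 3 with the smallest p per list are named. Others given by library were chosen after their values were seen. Ifi47 is placed on an unlocalised sequence in the deposited annotation, so its RefSeq position is given. Motifs were searched by exact letters on both strands.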

Additional observations from a re-analysis of the deposited data

How the results depend on the processing

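The count of interferon-stimulated genes called lower, 2, was also 2 with DESeq2's size factors, with upper-quartile scaling, with a minimum of 1 CPM in 3 libraries and with a length and GC trend removed, the last chosen after seeing the data; in these settings 0.706% to 0.994% of all genes were called lower. It was 5 with no filter on low counts, 7 with DESeq2, 1 with limma-voom, and 0 and 0 with limma on log2(FPKM + 1) and log2(FPKM + 0.1). Leaving out single libraries gave 0 to 6 genes, where 0.194% to 2.12% of all genes were called lower. The median log2 fold change was -0.44 to -0.30 under other settings and -0.46 to -0.23 when single libraries were left out, the last without control 2. The count of members with no overlap between groups was 10 to 27 when single libraries were left out: 27 without control 1, against 10 without control 2 and 12 without control 3. With fewer controls to clear, the share of all tested genes rises too. In the main scaling 18.5% lay below controls 2 and 3, against 11.9% below all 3 controls. The shares without control 2 or control 3 are not given here. The count of such members was 9 with counts not rounded (11.9% of all tested genes) and 10 in the deposited TPM (10.3%), both chosen after seeing the data. Of 592 recomputed values for single members, 541 kept direction and side of the threshold, 14 lost the call, 16 gained it and 21, in 10 members, turned sign; the cause was not tested.

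Sign changes occurred for Usp18 (-0.027, upper-quartile scaling) and for Bst2 (0.12) and Ifi27 (0.082) with the trend removed. When single libraries were left out, the log2 fold change ranged from -0.29 to 0.061 for Ddx58, -0.30 to 0.073 for Ifit3, -0.24 to 0.45 for Usp18, -0.12 to 0.024 for Parp9, -0.23 to 0.19 for Dtx3l, -0.32 to 0.21 for Rsad2, -0.25 to 0.15 for Cmpk2, -0.17 to 0.057 for Bst2, -0.46 to 0.10 for Ly6e and -0.29 to 0.13 for Ifi27.

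Over all genes, 94 higher calls became 174 with no filter, 371 with DESeq2, 48 and 52 with limma on log2(FPKM + 1) and log2(FPKM + 0.1), 163 with the trend removed, and 19 to 407 when single libraries were left out. The 87 lower calls became 156 with no filter, 263 with DESeq2 and 24 to 261 when single libraries were left out. The 1 pathway gene called lower became 2 with DESeq2, 0 and 0 with limma on FPKM, and 0 to 2 when single libraries were left out.

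Knockout and control replicates share numbers. Same-numbered libraries did not deviate together (r = -0.16, -0.079 and -0.076). The deviations were taken from each group's own mean over 3 libraries, so these values cannot exclude that the numbers mark pairs. With the replicate number as a block, 1 member (Ifi47) was called lower (0.37% of all genes), with 0 pathway genes lower, and 42 higher and 45 lower calls over all genes.

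The 3 libraries in each group and counts down to 17 limit what can be called: an interferon-stimulated gene that misses the threshold is not shown to be unaffected. The rank correlation of a library's deviations with gene length was 0.27, 0.085 and 0.088 in knockouts and -0.29, -0.22 and 0.27 in controls.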
